A study of Homo sapiens with 12 samples.

Results

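The regions described here are hnRNPK ChIP-seq peaks at protein-coding promoters in HCT116, a cell line established from a human colorectal carcinoma. A peak was taken when its midpoint lay within 1 kb of the 5′ end of a protein-coding gene record of GENCODE release 44, which is called the transcription start site (TSS) below. The lists held 16768 peaks, of which 16214 were on the main chromosomes (1 to 22, X and Y) and 1018 were promoter peaks. All cells overexpressed hnRNPK, the control cells included. On top of that they carried CRLM1, a long noncoding RNA (lncRNA) from colorectal liver metastases (CRLM1-OE), an empty control construct or an antisense control construct. Per the study's methods, CRLM1 was expressed from a puromycin-selected lentiviral vector and the hnRNPK coding fragment was cloned into a plasmid. Each group had 2 replicates, each an immunoprecipitated library with its own input library, and each of the 6 peak lists was called on 1 replicate. The total of reads per library was not given with the lists, so sequencing depth is unknown and every count of peaks below also depends on it.

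hnRNPK is a nuclear and cytoplasmic protein with KH domains that binds single-stranded, cytosine-rich DNA and RNA. At promoters it is best known from the CT element of the MYC gene, a run of CCCTCCCC repeats, where it can act as a transcription factor. Promoters that fire in both directions, and promoters rich in CpG, often carry such cytosine-rich stretches on one strand.

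The promoters at which hnRNPK was called most often show this cytosine-rich character to different degrees. The sequences below are the 200 bases just before the TSS, on GRCh38, 5′ to 3′ on the strand of the gene, with every TCCC or GGGA (TCCC on the other strand) in capitals. The first 3 belong to genes with a promoter peak in at least 4 lists, CDC25C (chr5:138338356-138338555 on the minus strand), NEK8 (chr17:28725697-28725896 on the plus strand) and PLXNB2 (chr22:50307647-50307846 on the minus strand). The other 3 belong to the genes with the best mean score rank among those called in both CRLM1-OE lists and no control list, CCDC85B (chr11:65890473-65890672 on the plus strand), ISYNA1 (chr19:18438168-18438367 on the minus strand) and CCN1 (chr1:85580561-85580760 on the plus strand). None of the 6 stretches overlapped an annotated exon.
CDC25C: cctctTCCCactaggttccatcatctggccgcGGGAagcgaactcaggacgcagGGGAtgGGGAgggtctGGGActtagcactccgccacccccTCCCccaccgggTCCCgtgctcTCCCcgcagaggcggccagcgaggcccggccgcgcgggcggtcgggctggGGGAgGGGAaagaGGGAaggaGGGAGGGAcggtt
NEK8: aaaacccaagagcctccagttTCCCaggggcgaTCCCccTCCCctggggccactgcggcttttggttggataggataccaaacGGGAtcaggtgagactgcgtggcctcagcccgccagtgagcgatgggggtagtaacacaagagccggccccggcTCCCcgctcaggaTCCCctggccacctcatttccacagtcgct
PLXNB2: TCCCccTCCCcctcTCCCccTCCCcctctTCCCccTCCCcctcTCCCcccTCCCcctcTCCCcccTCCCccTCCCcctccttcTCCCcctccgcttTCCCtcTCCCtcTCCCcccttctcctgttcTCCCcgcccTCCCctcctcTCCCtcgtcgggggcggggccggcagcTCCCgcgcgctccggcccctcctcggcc
CCDC85B: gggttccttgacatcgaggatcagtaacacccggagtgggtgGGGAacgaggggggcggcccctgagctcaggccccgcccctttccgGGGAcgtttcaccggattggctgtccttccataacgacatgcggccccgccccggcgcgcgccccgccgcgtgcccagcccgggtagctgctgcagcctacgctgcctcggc
ISYNA1: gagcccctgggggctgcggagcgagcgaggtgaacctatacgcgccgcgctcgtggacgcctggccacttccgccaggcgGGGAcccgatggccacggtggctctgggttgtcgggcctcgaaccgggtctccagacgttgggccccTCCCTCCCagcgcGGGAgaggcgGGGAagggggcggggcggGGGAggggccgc
CCN1: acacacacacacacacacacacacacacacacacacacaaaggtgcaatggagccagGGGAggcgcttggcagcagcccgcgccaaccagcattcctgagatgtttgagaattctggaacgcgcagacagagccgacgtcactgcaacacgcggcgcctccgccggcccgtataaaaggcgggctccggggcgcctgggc
The count of the 4-letter matches was 19 at PLXNB2 and 13 at CDC25C. It was 6 at NEK8 and ISYNA1, 2 at CCDC85B and 1 at CCN1. GC content ranged from 62.5% at CCN1 to 77.0% at PLXNB2. The stretch was covered over all 200 bases by the CRLM1-OE peaks of CCDC85B and ISYNA1, whereas the CCN1 peak of CRLM1-OE replicate 1 began just downstream of it. At NEK8 both CRLM1-OE peaks covered all 200 bases. The NEK8 peaks covered 143 bases in empty control replicate 2, 120 in antisense control replicate 1 and 0 in antisense control replicate 2.

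Promoters held a larger part of the CRLM1-OE lists than of the empty control lists. CRLM1-OE replicate 1 had 266 promoter peaks at 292 genes and replicate 2 had 366 at 429 genes. With the empty construct there were 21 at 25 genes and 93 at 97 genes, and with the antisense construct 127 at 142 genes and 145 at 155 genes. As shares of the peaks on the main chromosomes, the CRLM1-OE lists stood at 6.13% (95% Wilson interval 5.45 to 6.88) and 11.6% (10.5 to 12.7). With the empty construct the shares were 1.30% (0.85 to 1.97) and 3.57% (2.92 to 4.35), and with the antisense construct 5.61% (4.74 to 6.64) and 6.52% (5.57 to 7.62). The intervals cover counting error only. Positions within 1 kb of a protein-coding TSS make up 1.25% of the genome outside gaps, so the lists ranged from 1.04 times that share in empty control replicate 1 to 9.24 times in CRLM1-OE replicate 2.

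**Figure D1:**
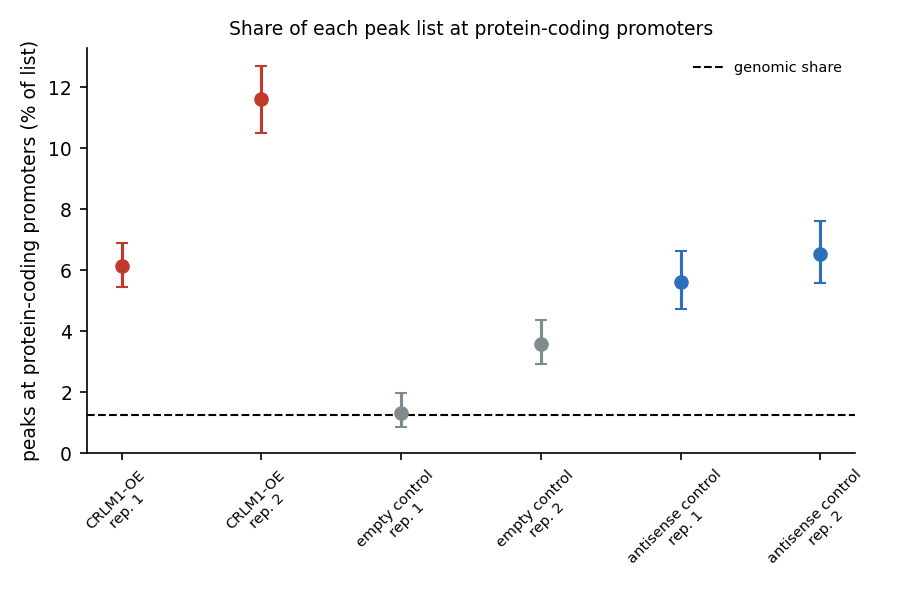
Share of each peak list at protein-coding promoters, in percent of its peaks on chromosomes 1 to 22, X and Y; bars are 95% Wilson intervals and the dashed line is the share of the genome, 1.25%. CRLM1-OE replicate 2 stands highest at 11.6%, empty control replicate 1 lies at the genomic share, and CRLM1-OE replicate 1 lies between the antisense control lists.

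The mean promoter share was 8.85% ± 3.85 (SD, n = 2) in CRLM1-OE, 2.43% ± 1.61 (SD, n = 2) in the empty control and 6.07% ± 0.64 (SD, n = 2) in the antisense control. CRLM1-OE exceeded the empty control by 6.42 percentage points, and both of its lists lay above both empty lists (two-sided exact permutation of the list labels, p = 0.333, the smallest p that 2 lists against 2 allow). Against the antisense control the difference was 2.78 points with overlapping lists (exact permutation p = 0.667). Both antisense lists were above both empty lists, by a mean of 3.63 points (exact permutation p = 0.333). Against all 4 controls together CRLM1-OE was higher by 4.60 points (exact permutation p = 0.2, where 0.0667 is the smallest possible). These differences rest on CRLM1-OE replicate 2 to a large extent. Without it, the difference was 3.70 points from the empty control, 0.0633 from the antisense control and 1.88 from all controls.

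The lists also differ in length and peak width. Both CRLM1-OE lists, with 4339 and 3163 peaks on the main chromosomes, were longer than every control list (1619 to 2607), whereas peak width crossed the groups. Among the 1000 highest-scoring peaks of each list, where length is equal, promoter peaks numbered 104 and 210 in CRLM1-OE, 12 and 46 in the empty control and 83 and 76 in the antisense control. The CRLM1-OE lists then lay above all control lists, and the difference was 12.8 points from the empty and 7.75 points from the antisense control. CRLM1-OE replicate 1 and empty control replicate 2 had the narrowest peaks outside promoters, with median widths of 500 and 514 bp. Between these 2 lists the promoter share differed by 2.56 points. Among the 4 lists with wider peaks, CRLM1-OE replicate 2 exceeded empty control replicate 1 by 10.3 points and the antisense lists by 5.96 and 5.05 points. The part of depth, list length and peak width in the group difference was not tested.

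Starts of lncRNA genes showed a smaller spread between lists. Peaks within 1 kb of a lncRNA gene start and at no coding promoter made up 2.26% and 2.37% of the CRLM1-OE lists, 1.54% and 1.27% of the empty control lists and 1.99% and 1.98% of the antisense control lists. Both CRLM1-OE values lay above all 4 control values, by 0.62 points on average (exact permutation p = 0.133).

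Within the promoter window, peaks gathered at and just after the TSS. The first 250 bp downstream of the TSS had the highest density in all 6 lists, relative to the whole-genome density of the same list. This density was 9.22 and 18.2 times the genomic one in CRLM1-OE replicates 1 and 2. It was 2.25 and 4.88 times in the empty control and 7.24 and 9.81 times in the antisense control. On the upstream side the density fell off faster, since the bin from 250 to 500 bp was lower upstream than downstream in 6 of 6 lists. In CRLM1-OE replicate 2, for example, that bin stood at 5.37 times upstream and 13.1 times downstream.

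**Figure D2:**
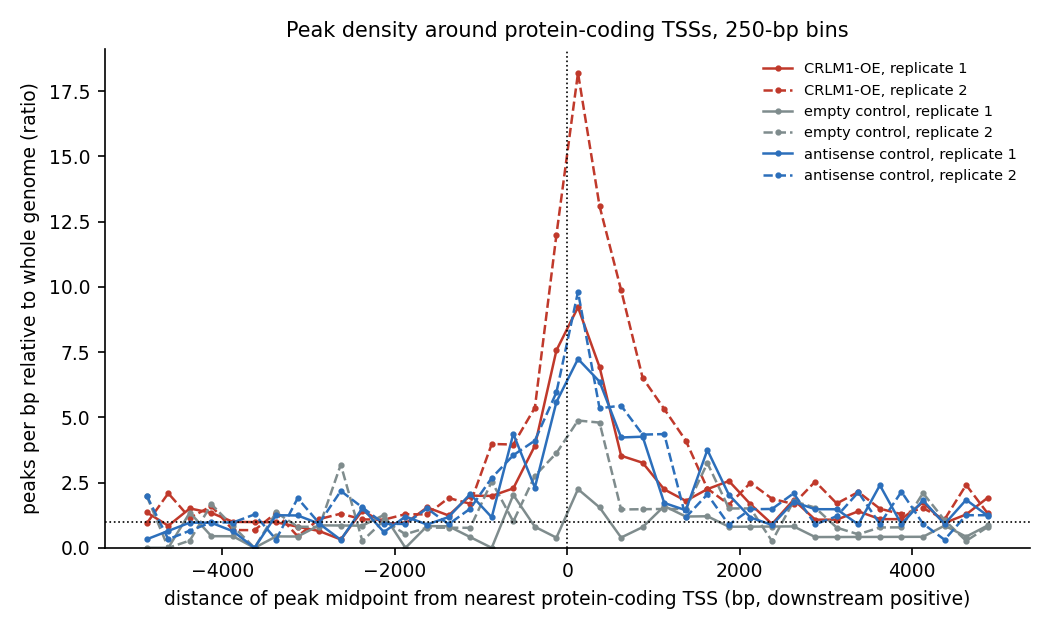
Peak density in 250-bp bins of distance from the nearest protein-coding TSS, as a ratio to the density of the same list over the whole genome; lines are the 6 lists, coloured by group. All lists have their highest value in the first bin downstream of the TSS, from 2.25 in empty control replicate 1 to 18.2 in CRLM1-OE replicate 2.

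The share of promoter peaks with the midpoint within 250 bp of the TSS was 44.4% and 42.6% in CRLM1-OE, 33.3% and 38.7% in the empty control and 37.0% and 39.3% in the antisense control. Positions this close make up 25.9% of the promoter window. All 6 lists lay above that share, by 13.3 percentage points ± 3.95 (SD, n = 6; two-sided exact sign-flip permutation over the lists, p = 0.0312, the smallest possible; Benjamini-Hochberg adjusted p = 0.0469 over 6 such tests). The CRLM1-OE lists were higher than all 4 control lists, by 6.40 points on average (exact permutation p = 0.0667, the smallest possible for 2 against 4). The TSS itself lay inside 60.2% and 79.2% of the CRLM1-OE promoter peaks, 61.9% and 48.4% of those of the empty control and 67.7% and 59.3% of those of the antisense control. These groups overlapped (CRLM1-OE against all controls, exact permutation p = 0.4).

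Fewer promoter peaks lay upstream than downstream of the TSS in every list. The upstream share was 39.8% and 33.9% in CRLM1-OE, 38.1% and 43.0% in the empty control and 37.0% and 38.6% in the antisense control. In the genome, 49.1% of the positions in the promoter window are upstream. The lists were lower by 10.7 percentage points ± 3.03 (SD, n = 6; exact sign-flip permutation p = 0.0312, adjusted p = 0.0469). The median midpoint lay 64 and 140 bp downstream of the TSS in CRLM1-OE, 89.5 and 38.5 bp in the empty control and 172 and 122 bp in the antisense control. Between CRLM1-OE and all controls the upstream share differed by -2.32 points (exact permutation p = 0.533).

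The size of this skew depended on the start used. A gene record begins at the most upstream start that GENCODE annotates, which can lie far before the start of most of the gene's transcripts. With the starts of all basic transcripts of coding genes instead, the upstream share was 44.1% and 42.3% in CRLM1-OE, 40.0% and 44.9% in the empty control and 41.4% and 40.5% in the antisense control, against 48.3% in the genome. The mean difference from the genome was then -6.14 points and negative in 6 of 6 lists. The gathering within 250 bp was larger with these starts, 54.7% and 57.2% in CRLM1-OE against 29.5% in the genome.

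Bidirectional promoters, where 2 coding genes start within 1 kb of each other on opposite strands, did not hold a share of promoter peaks that differed from the genome beyond the spread of the lists. The values were 8.65% and 14.8% in CRLM1-OE, 14.3% and 6.45% in the empty control and 11.0% and 6.9% in the antisense control, against 8.02% of promoter positions. Of the 6 lists, 4 lay above and 2 below (mean difference 2.32 points ± 3.62, SD, n = 6; exact sign-flip permutation p = 0.219). The 95% interval of CRLM1-OE replicate 2 was 11.5 to 18.8%, whereas the 14.3% of empty control replicate 1 rested on 3 of 21 peaks. A lncRNA start on the opposite strand within 1 kb was more common than a coding partner in 5 of 6 lists, and less common in empty control replicate 1. It was present at 12.8% and 19.9% of the CRLM1-OE promoter peaks, 9.52% and 21.5% of those of the empty control and 18.9% and 20.7% of those of the antisense control. Of all coding gene records, 12.3% have such a lncRNA start and 13.4% are at bidirectional promoters. Shares of records are not shares of positions, since bidirectional records hold 8.02% of promoter positions. For lncRNA starts the share of positions was not computed.

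**Figure D3:**
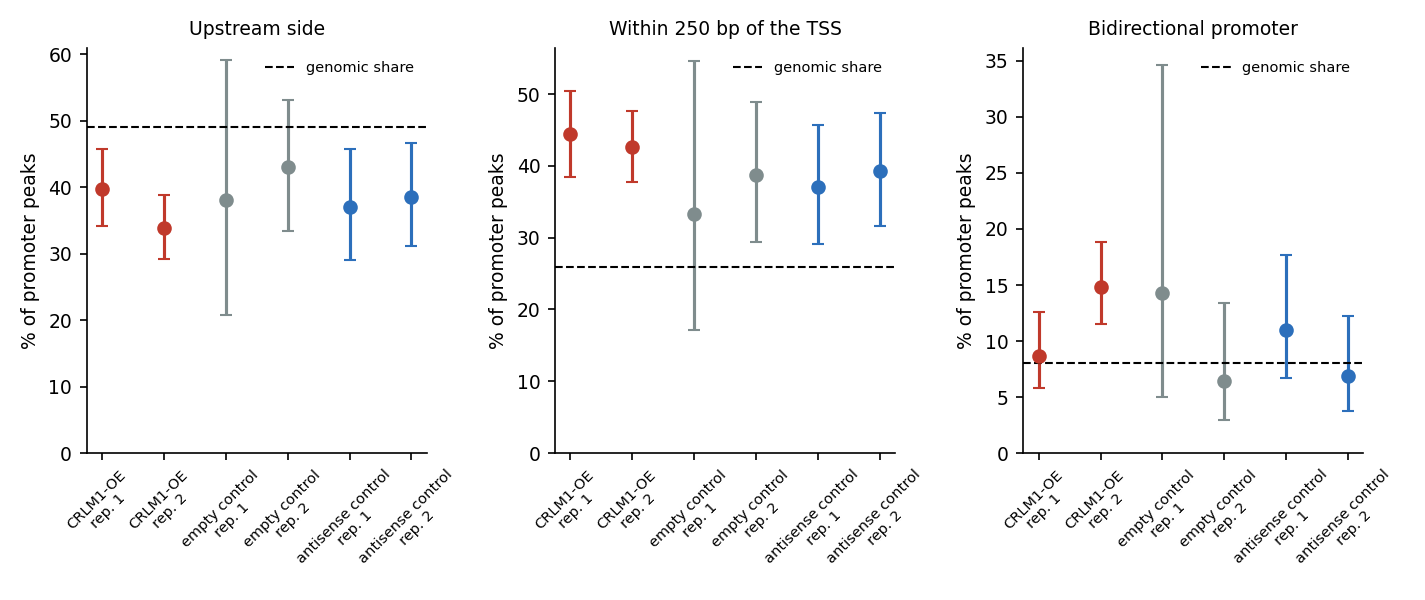
Position of promoter peaks in each list, as the percent upstream of the TSS (left), within 250 bp of it (middle) and at bidirectional promoters (right), with 95% Wilson intervals; dashed lines are the genomic shares of 49.1%, 25.9% and 8.02%. All 6 lists lie below the line on the left and above it in the middle, and 4 of 6 lie above it on the right.

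Several pairs of genes that start on opposite strands carried strong peaks. The highest-scoring promoter peak of CRLM1-OE replicate 1, with a score of 309 and rank 16 in the list, spanned the starts of HCFC1R1 and THOC6, a subunit of the THO mRNA export complex. The same pair had peaks in empty control replicate 2 (score 59.1, rank 1116) and antisense control replicate 1 (90.4, rank 70). POLR2A, the largest subunit of RNA polymerase II, and its neighbour ZBTB4 shared peaks in CRLM1-OE replicate 2 (score 182, rank 54), empty control replicate 2 (56.6, rank 1387) and antisense control replicate 1 (62.4, rank 630). The score is the peak caller's own value, which starts at 50, and ranks are taken within a list. In empty control replicate 1 the highest promoter peak covered the start of the recombination gene XRCC3, with its midpoint 292 bp downstream of it and 518 bp upstream of the start of ZFYVE21. It had rank 158 and a score of 73.6.

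Promoter peaks were wider and richer in GC than the other peaks of the same list. Median widths of promoter and other peaks were 719 and 500 bp in CRLM1-OE replicate 1, and 1234.5 and 721 bp in replicate 2. They were 775 and 719 bp for replicate 1 of the empty control, 637 and 514 bp for its replicate 2, 1022 and 717 bp for antisense replicate 1 and 829 and 658 bp for antisense replicate 2. The difference was 231 bp ± 162 (SD, n = 6), positive in 6 of 6 lists (exact sign-flip permutation p = 0.0312, adjusted p = 0.0469). Median GC content was between 60.7% and 67.2% in promoter peaks and between 37.3% and 43.5% in the others, a difference of 23.7 points ± 0.97 (SD, n = 6; exact sign-flip permutation p = 0.0312, adjusted p = 0.0469). Promoters are GC-rich as a class, and the difference was not set against other GC-rich sequence.

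Promoter peaks ranked higher by score than the other peaks in 5 of 6 lists. Their median percentile was 67.1 and 76.0 in CRLM1-OE, 60.5 in empty control replicate 2 and 72.6 and 59.0 in the antisense control, against 47.4 to 49.8 for other peaks of those lists. In empty control replicate 1 it was 41.6, and its other peaks had the higher median. Over the lists the difference was 13.7 ± 13.1 (SD, n = 6; exact sign-flip permutation p = 0.0625, adjusted p = 0.0750). Without empty control replicate 1, whose 21 promoter peaks rank low, it was 18.2 and positive in all lists that were left. Among the 100 highest-scoring peaks of a list, promoter peaks numbered 15 and 25 in CRLM1-OE, 0 and 2 in the empty control and 15 and 13 in the antisense control.

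A promoter peak in at least 1 list was found at 997 of 20033 protein-coding genes, which is 4.98%. At least 1 CRLM1-OE list called 3.36% of the genes, at least 1 of the 4 control lists called 1.97%, and both CRLM1-OE lists called 0.235%. Of the 997 genes, 888 (89.1%) were in 1 list alone, 83 were in 2, 21 in 3, 2 in 4 and 3 in 5, and no gene was in all 6. Both CRLM1-OE lists called 47 genes, of which 31 (66.0%) were in no control list and 16 in at least 1. Of the 997 genes, 674 were in at least 1 CRLM1-OE list and 395 in at least 1 control list. Most genes of any CRLM1-OE list were thus in no control list, so this absence was not particular to the 47. Both antisense lists called 8 genes, and both empty lists called 1, CDC25C. The genes called in at least 2 control lists and no CRLM1-OE list numbered 6, namely PTBP1, ARHGEF1, TTLL12, NECAB2, P3H3 and ENTPD8, which were named after their values were seen.

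The CRLM1-OE replicates shared more genes than any other of the 15 pairs of lists, both in number and as a share of the genes in either list. Their 47 genes were 16.1% of replicate 1, 11.0% of replicate 2 and 6.97% of the genes in either. As a share of a single list, some pairs across groups were higher, since 20.6% of the genes of empty control replicate 2 and 5 of the 25 of empty control replicate 1 were also in CRLM1-OE replicate 2. By the share of the genes in either, the next pair crossed groups, empty control replicate 2 and antisense control replicate 1, with 11 genes or 4.82% of the genes in either. The antisense replicates shared 8 genes, or 2.77%, and ranked behind 8 pairs. The empty replicates shared 0.826%. Of the 47 genes, 42 had CRLM1-OE peaks that overlapped by at least 1 bp, and 27 had peaks that overlapped reciprocally by at least 50%. The CRLM1-OE lists also had the most promoter genes of all lists, and the part of list length in the shared count was not tested.

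Promoter peaks recurred more often than peaks elsewhere. Of the promoter peaks, 23.7% and 19.9% in CRLM1-OE overlapped a peak of another list by at least 1 bp, compared with 6.24% and 6.58% of the other peaks. In the empty control the shares were 23.8% and 31.2% against 5.19% and 8.75%, and in the antisense control 26.0% and 17.2% against 5.39% and 5.68%. The share was thus higher for promoter peaks in 6 of 6 lists. Promoter peaks were also wider, the part of which was not tested, and the lists share these overlaps with each other, so the values are a description.

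The genes in 5 lists, CDC25C, NEK8 and PLXNB2, had peaks in all 3 groups. CDC25C (chr5:138285269-138338355, minus strand) encodes the phosphatase that activates the mitotic kinase CDK1. Its promoter peaks had scores of 61.3 in CRLM1-OE replicate 1, 66.0 and 68.9 in the empty control and 59.6 and 115 in the antisense control, and CRLM1-OE replicate 2 had none. The scores of 4 lists lay close together and antisense control replicate 2 was higher, with rank 20. The midpoints lay between 300 bp upstream and 87 bp downstream of the TSS, and all lay within the overlapping gene FAM53C, whose nearest basic transcript start was 2 to 389 bp away.

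PLXNB2, a receptor for semaphorins (chr22:50274979-50307646, minus strand), had scores of 57.5 and 78.3 in CRLM1-OE, 67.0 in empty control replicate 2 and 64.6 and 62.9 in the antisense control. The CRLM1-OE scores enclosed those of the controls, but scores of different libraries also depend on depth. The midpoints fell within 409 bp of the record's start, a GC-rich stretch with the run of TCCC shown above, whereas the RefSeq start of the gene lay between 5891.5 and 6386 bp away. NEK8, a kinase of primary cilia (chr17:28725897-28743455, plus strand), had scores of 72.2 and 371 in CRLM1-OE, 95.3 in empty control replicate 2 and 58.2 and 105 in the antisense control. The peak of 371 was the highest-scoring promoter peak of CRLM1-OE replicate 2, with rank 5 and a width of 3201 bp. The NEK8 midpoints lay between -631 bp from the TSS in CRLM1-OE replicate 1 and 990 bp downstream in antisense control replicate 2. They lay 1901 to 3522 bp from the nearest basic transcript start of NEK8 and 45 to 967 bp from that of TLCD1, so the assignment to NEK8 depends on the gene record.

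CD68 was called in both CRLM1-OE and both antisense lists and in no empty control list. This gene, a lysosomal glycoprotein best known from macrophages (chr17:7579491-7582111, plus strand), had scores of 130 and 234 in CRLM1-OE and 95.2 and 68.5 in the antisense control. Both CRLM1-OE scores were higher, but by rank the groups overlapped, and the ranks were 76 and 29 against 52 and 294. The 200 bases before this TSS are annotated exon of an overlapping gene record, ENSG00000264772, and were not printed.

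**Figure D4:**
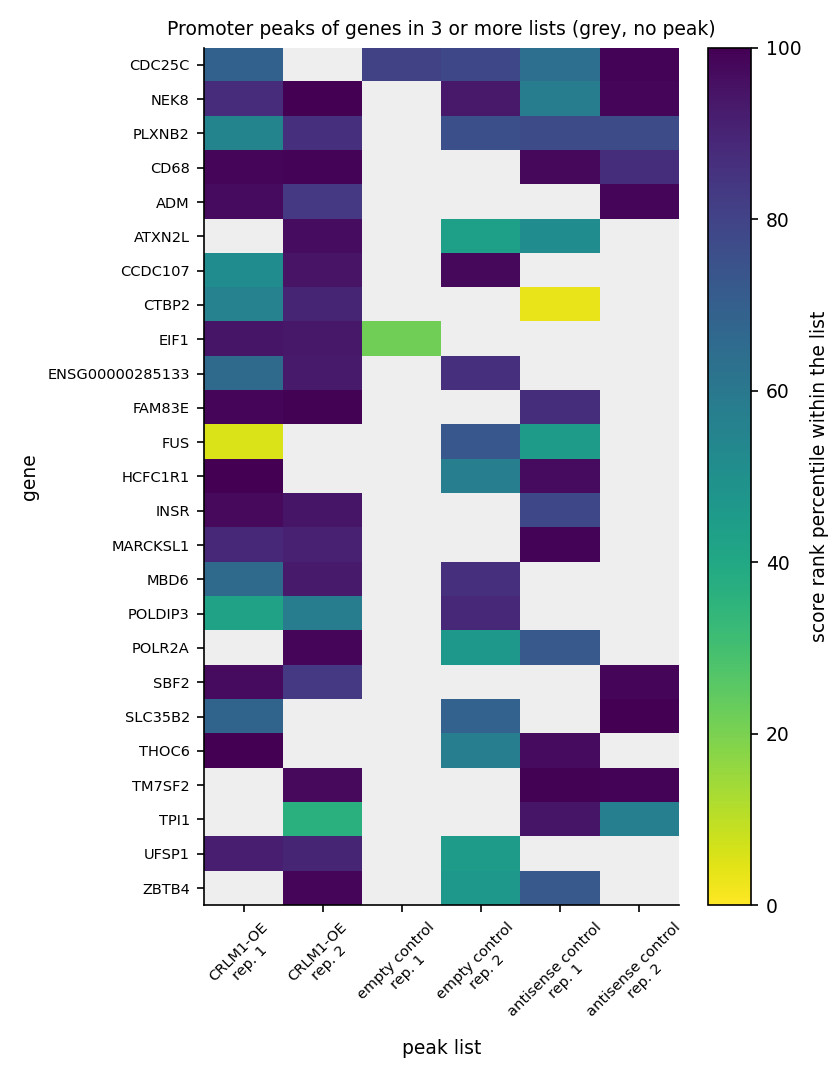
Score rank percentile of the promoter peak at 25 of the 26 genes called in at least 3 lists (rows), in the 6 lists (columns); darker is higher and grey means no promoter peak. Empty control replicate 1 has peaks at CDC25C and EIF1 alone, and no row is filled in all 6 columns.

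The genes with the best mean score percentile in both CRLM1-OE lists were FAM83E, CCDC85B, CD68, CCN1, ISYNA1, SAE1, INSR, PCBP2, EIF1, NEK8, ATF4 and BGLAP. Of these 12, CCDC85B, CCN1, ISYNA1, SAE1, PCBP2, ATF4 and BGLAP had no promoter peak in a control list. CCDC85B had scores of 171 and 200 (ranks 48 and 46). Both peaks were broad, 2047 and 4319 bp. The CCDC85B peak of replicate 2 also covered the start of FIBP. There it overlapped a peak of antisense control replicate 1 that was assigned to FIBP (score 73.35). CCN1 (chr1:85580761-85584589, plus strand), a secreted matrix-associated growth factor, had scores of 111 and 230 and midpoints 421 and 554 bp downstream of the TSS. ISYNA1 (chr19:18434388-18438167, minus strand), the synthase of inositol phosphate, had scores of 226 and 107 and midpoints 104 and 222 bp downstream.

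PCBP2, which like hnRNPK is a KH-domain protein that binds poly(C), had scores of 139 and 91.1, with both midpoints downstream of the TSS. ATF4, the transcription factor of the integrated stress response, had scores of 78.3 and 108. Its midpoints lay 892 and 970 bp from the start of the gene record but 2 and 61.5 bp from a basic transcript start, so these peaks sat on an annotated start. The reverse held for SAE1, a subunit of the SUMO-activating enzyme, with scores of 120 and 101. Its peaks lay over 18 kb from its basic transcript starts and 1213 and 969 bp from the start of ZC3H4.

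FAM83E, INSR and EIF1 were called in both CRLM1-OE lists and 1 control list each. FAM83E had scores of 122 and 326 in CRLM1-OE and 70.6 in antisense control replicate 1. The insulin receptor gene INSR (chr19:7112255-7294414, minus strand) had 111 and 104 in CRLM1-OE and 65.3 in antisense control replicate 1. EIF1, which directs start-codon selection, had 85.9 and 98.0 in CRLM1-OE and 52.0 in empty control replicate 1. In all 3 genes the control score was the lowest, but they were chosen for high CRLM1-OE percentiles, which favours that order. At POLDIP3, CCDC107 and MARCKSL1, also in both CRLM1-OE lists and 1 control list, the control score was the highest. It was the lowest at CTBP2 and UFSP1 and lay between the CRLM1-OE scores at ADM and MBD6. Scores of different libraries also depend on depth and were not tested against each other.

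In the antisense control, TM7SF2, a sterol reductase of cholesterol synthesis, had scores of 118 and 115 (ranks 18 and 19), beside 146 in CRLM1-OE replicate 2. The highest promoter peak of antisense control replicate 1 was at KMT5C, a histone H4 lysine methyltransferase, with a score of 125 and rank 13. That of antisense control replicate 2 was at SLC35B2, a transporter of the sulfate donor PAPS, with 149 and rank 7. SLC35B2 also had peaks in CRLM1-OE replicate 1 (60.9) and empty control replicate 2 (63.0). In empty control replicate 2 the highest promoter peak, with a score of 169 and rank 59, was assigned to CCDC107. It covered the start of RMRP, the RNA of the RNase MRP ribonucleoprotein, as did the CCDC107 peaks of both CRLM1-OE lists (56.8 and 105).

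Some recurrent promoters therefore belong to other annotated features as much as to the coding gene that gives them their name. The peaks at POLDIP3 in 3 lists lay 802 to 927 bp upstream of its TSS, and the one of CRLM1-OE replicate 2 covered the start of RNU12, a small nuclear RNA of the minor spliceosome. The peaks at MBD6 lay within the stress gene DDIT3, 467 to 706 bp from a second coding record, ENSG00000285133. Among all coding genes, 20.3% have a TSS inside another coding gene. The share was 22.2% of the genes called in any list, 31.9% of the 47 in both CRLM1-OE lists and 30.8% of the 26 in at least 3 lists.

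By function, immediate-early and growth-response genes were called most often among the 22 lists examined. Of 60 such genes, 17 (28.3%, beside 4.98% of all genes) had a promoter peak. CRLM1-OE lists called 15 of them (25%, beside 3.36%) and control lists 5 (8.33%, beside 1.97%). CRLM1-OE replicate 1 called 7 and replicate 2 called 10, with KLF2 and CCN1 in both. The empty control lists called 0 and 2, and the antisense lists 3 and 0. The AP-1 genes JUN (score 164), FOSL1 (121), JUND (67.5) and JUNB (53.2) had a peak in 1 CRLM1-OE list each, as did IER2 (128), NR4A2 (98.8) and the stress phosphatase subunit PPP1R15A (118). EGR1 (55) and BTG1 (67.5) were called in antisense control replicate 1.

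Of the growth-response genes in 2 lists, KLF6 had the strongest peaks, with a score of 259 in CRLM1-OE replicate 1 and 122 in empty control replicate 2, ranks 22 and 109. Both lay upstream of the TSS, at 808 and 688 bp, within the lncRNA gene ENSG00000288755. KLF2, a related zinc finger factor, had scores of 51.2 and 54.9 in CRLM1-OE, close to the lower limit of the lists, and its peaks covered the start of the divergent lncRNA KLF2-DT. GADD45B, a stress sensor, had 55.1 in CRLM1-OE replicate 1 and 88.2 in antisense control replicate 1. The antiproliferative gene BTG2 had 53 in CRLM1-OE replicate 2 and 55.6 in empty control replicate 2. KLF2 and KLF6 also make up 2 of the 3 genes called among 27 Kruppel-like and SP factors (11.1%, beside 4.98% of all genes), the other being SP7.

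**Figure D5:**
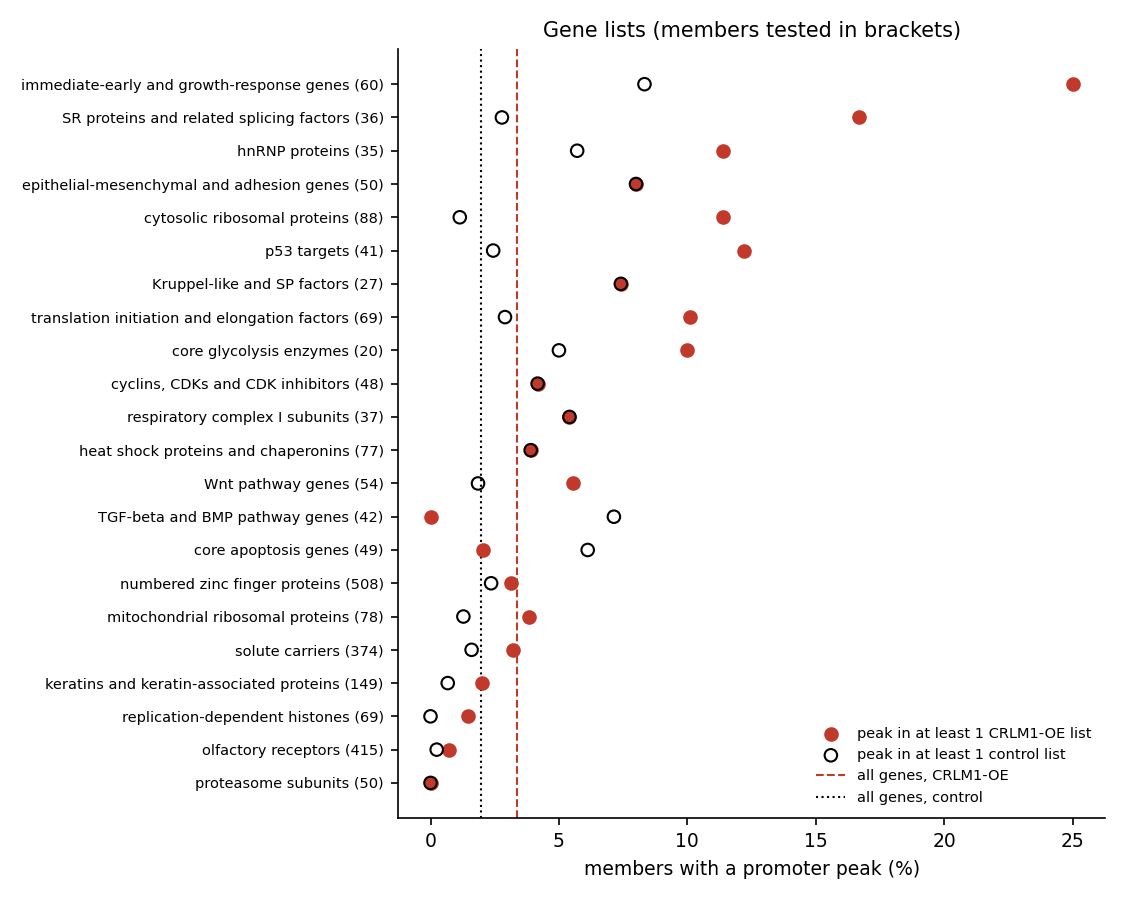
Percent of the members of each gene list with a promoter peak in at least 1 CRLM1-OE list (filled) and at least 1 control list (open); vertical lines are the same over all genes, 3.36% and 1.97%. Immediate-early and growth-response genes stand farthest right at 25% and 8.33%, and no proteasome subunit was called.

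Splicing factors and hnRNP proteins had the next highest shares of called genes. Over all genes, 674 of the 997 called were in a CRLM1-OE list. Of 36 SR proteins and related splicing factors, 7 (19.4%, beside 4.98% of all genes) were called. CRLM1-OE lists called 6 (16.7%, beside 3.36%) and control lists 1 (2.78%, beside 1.97%). Among the 6 were SRSF2 (63.4), TRA2A (58.0) and the cold-inducible RNA-binding protein CIRBP (150), each in 1 CRLM1-OE list. SRRM3 had a score of 124 and rank 14 in antisense control replicate 1. Of 35 hnRNP genes, 6 (17.1%) were called, 4 in a CRLM1-OE list, a part close to that over all genes. As shares of the 35, CRLM1-OE lists called 11.4% (beside 3.36% of all genes) and control lists 5.71% (beside 1.97%). HNRNPA1 had a score of 113, SYNCRIP 83.6 and PCBP1 60.7, all in CRLM1-OE replicate 2. PTBP1, the polypyrimidine tract-binding protein, was called in empty control replicate 2 (67.4) and antisense control replicate 1 (56.6) and in no CRLM1-OE list.

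Of 88 cytosolic ribosomal protein genes, 11 (12.5%, beside 4.98% of all genes) were called. CRLM1-OE lists called 10 (11.4%, beside 3.36%) and control lists 1, RPL12 (1.14%, beside 1.97%). CRLM1-OE replicate 2 called 8 and replicate 1 called 2, with none in both. The scores ran from 50.3 at RPL31 to 102 at RPS28. Of 69 translation initiation and elongation factors, 7 (10.1%, beside 4.98% of all genes) were called, all in a CRLM1-OE list (beside 3.36%). Control lists also called 2 of the 7, EIF1 and EIF4E2 (2.90%, beside 1.97%). EIF4A1, the helicase of the cap-binding complex, was in both CRLM1-OE lists (69.1 and 98.5). EIF4E2, at a bidirectional promoter shared with TIGD1, was in CRLM1-OE replicate 2 (56.8) and empty control replicate 1 (51.6). Mitochondrial ribosomal proteins were near the background, with 4 of 78 (5.13%), and proteasome subunits had 0 of 50.

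Of 41 p53 targets, 5 (12.2%, beside 4.98% of all genes) were called, GADD45A (153), PLK3 (97.0), PIDD1 (94.9), PLK2 (70.6) and BTG2 (53), all in CRLM1-OE replicate 2 and none in replicate 1. Control lists also called 1 of the 5, BTG2 (2.44%, beside 1.97% of all genes). All of the 5 but PIDD1 also stand in the growth-response list, and the PIDD1 peak was the same as that of RPLP2. Of 49 core apoptosis genes, 3 (6.12%, beside 4.98% of all genes) were called. Control lists called all 3 (6.12%, beside 1.97%) and CRLM1-OE lists 1 (2.04%, beside 3.36%), which are small counts. TRADD, an adaptor of the TNF receptor, was in CRLM1-OE replicate 1 (87.8) and antisense control replicate 1 (61.0). BAK1 (78.4) and BCL2 (76.9) were each in 1 antisense list.

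Of 50 epithelial-mesenchymal and adhesion genes, 7 (14.0%, beside 4.98% of all genes) were called. CRLM1-OE lists called 4 (8.00%, beside 3.36%) and control lists 4 (8.00%, beside 1.97%). SNAI1, a repressor of E-cadherin, had a score of 92.3 in CRLM1-OE replicate 1. RHOC had 82.7 and PLAUR 54.0 in CRLM1-OE replicate 2. CDC42 (64.1), TIMP2 (52.4) and CLDN4 (52.8) were in antisense lists. Of 42 TGF-beta and BMP pathway genes, BMP6 (73.9), SMAD2 (69.5) and TGFB1 (51.0) were called (7.14%, beside 4.98% of all genes). All were in antisense lists, so control lists called 7.14% (beside 1.97%) and CRLM1-OE lists none (beside 3.36%). Of 54 Wnt pathway genes, 7.41% were called (beside 4.98%). CCND1 (74.9), TLE3 (78.9) and DVL3 (73.9) were in a CRLM1-OE list (5.56%, beside 3.36%). FZD7 (74.5) was in an antisense list (1.85%, beside 1.97% for control lists).

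Of 20 core glycolysis enzymes, 2 (10.0%) were called, and of 37 respiratory complex I subunits 3 (8.11%), beside 4.98% of all genes. GAPDH had a score of 126 in CRLM1-OE replicate 2. TPI1, also of glycolysis, had 54.8 in CRLM1-OE replicate 2 and 81.0 and 56.9 in the antisense control. NDUFB10, a subunit of respiratory complex I, had 53.9 in CRLM1-OE replicate 1 and 60.6 in antisense control replicate 2. Among 374 solute carriers 16 (4.28%, near the background) were called, with SLC35B2 and SLC66A2 in more than 1 list. Numbered zinc finger genes lay near the background with 28 of 508 (5.51%). Keratin genes (4 of 149, 2.68%), replication-dependent histones (1 of 69, 1.45%) and olfactory receptors (4 of 415, 0.964%) lay below it. For most lists these counts are small, and the part of promoter GC content in them was not tested.

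Promoters with a peak were richer in GC than coding promoters at large. Within 1 kb of the TSS, the median GC content was 55% over all coding genes, between 59.3% and 61.7% over the genes of each list, and 62.5% over the 47 genes of both CRLM1-OE lists. The share of genes called was higher in GC-rich bands. In CRLM1-OE replicate 1 it was 0.335% between 45 and 50% GC, 1.44% between 55 and 60% and 5.95% between 70 and 75%. In CRLM1-OE replicate 2 the same bands gave 0.596%, 2.33% and 4.83%, and in antisense control replicate 2 they gave 0.224%, 0.555% and 2.79%. In empty control replicate 1, with 25 genes, the bands gave 0.0373%, 0.178% and 0.186%, beside 0.187% between 40 and 45%. In the band between 60 and 65% GC, the values were 2.29% and 3.61% in CRLM1-OE. They were 0.150% and 0.872% in the empty control and 1.35% and 1.68% in the antisense control. Between 40 and 45% GC the empty control (0.187% and 0.249%) lay above the antisense control (0.0622% and 0.124%), with CRLM1-OE at 0.311% and 0.436%. Of the 1607 genes in that band these are 3 and 4 against 1 and 2, so this order rests on few genes. The share of genes called also depends on list length, and the part of GC content in the group difference was not tested.

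The CT element CCCTCCCC, searched on both strands and within 1 kb of the TSS, was present at 46.3% of all coding genes. It was present at 61.5% to 76.0% of the genes of each list, at 72.3% of those in both CRLM1-OE lists and at 24 of 26 (92.3%) in at least 3 lists. Since such letters are more frequent in GC-rich sequence, the share was also taken between 55 and 65% GC. There it was 58.7% over all coding genes, 62.5% over the genes in any list and 65.4% over those in both CRLM1-OE lists. By list it was 64.5% and 60.4% in CRLM1-OE and 64.9% and 66.7% in the antisense control. The empty control had the highest values, 92.3% (12 of 13 genes) and 68.9%. Over the 17 genes in at least 3 lists it was 88.2%. The genes in at least 3 lists include pairs that share their peaks, such as POLR2A and ZBTB4. In the 200 bases printed above, the element was present at CDC25C, NEK8, PLXNB2 and ISYNA1 and absent at CCDC85B and CCN1. It was also absent from the unprinted 200 bases before CD68, a gene in 4 lists. A match describes the letters of the window and is not a measured binding site.

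The limit of 1 kb did not fall in a gap of the distances. The promoter midpoint farthest from a TSS lay between 917 and 998 bp in the 6 lists, and the nearest midpoint outside lay between 1003 and 1035 bp. The 50 bp inside the limit held 0 to 11 peaks per list and the 50 bp outside held 1 to 10. A promoter peak lay within 1 kb of at least 2 coding starts in 28 of 266 and 61 of 366 cases in CRLM1-OE, 3 of 21 and 5 of 93 in the empty control, and 14 of 127 and 10 of 145 in the antisense control, which is why genes outnumber peaks.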

How the data were processed

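Chromatin of HCT116 cells was immunoprecipitated with an anti-hnRNPK antibody and sequenced, with 1 input library per immunoprecipitate. Per the study's methods and labels, the authors trimmed reads with cutadapt, used Bowtie2 for alignment to GRCh38 and MACS2 for peak calling. The deposited lists hold other values, the start and end of each peak in bp, and a score with a floor of 50, which is a feature of older MACS versions, so the settings behind the lists are uncertain. Tests used the score only as a rank within a list. Scores of named peaks are printed as values and were not tested between lists. Each list came from 1 library, and replicates were not pooled.

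Peaks on chromosomes 1 to 22, X and Y were placed against 20033 protein-coding gene records of GENCODE release 44 with Python 3.11.15, pandas 2.3.3, numpy 2.4.6 and pysam 0.24.0. Promoter peaks, gene lists and named genes were chosen with earlier results of these data known. Genes were named when they were among the 12 best by mean score percentile in both CRLM1-OE lists, in at least 4 lists, among the 5 best in both lists of a control, members of a gene list in at least 2 lists, or at the highest promoter peak of a list. Some genes that meet this rule are not reported here. Other list members are named as examples, after their values were seen. Genomic shares were counted over every hg38 position outside gaps, without simulation. Groups were compared by exact permutation of list labels, and lists against the genome or against their other peaks by exact sign flips with Benjamini-Hochberg adjustment over 6 tests. On simulated lists the placement step found 400 of 400 planted promoter peaks. Depth is unknown, and precision is limited by 2 lists per group. The alternatives were other windows, start sets, score thresholds, list lengths and overlaps, and leaving out each list.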

Additional observations from a re-analysis of the deposited data

How the results depend on the processing

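Over 13 results, 142 alternative values were computed. Of these, 102 kept their direction and side of the threshold or moved little, and none reversed. The 24 that lost significance all left out 1 of the 6 lists, after which the smallest possible exact sign-flip p is 0.0625. Ranges over those fits were 23.4 to 24.0 points for GC content, 175 to 266 bp for width, -11.6 to -9.74 points for the upstream share, 12.3 to 14.5 points for peaks within 250 bp, 1.44 to 3.10 points for bidirectional promoters and 10.8 to 18.2 for the score percentile. For the promoter share they were 3.70 to 9.14 points (CRLM1-OE minus empty), 0.0633 to 5.50 (minus antisense), 1.88 to 7.32 (minus both controls) and 2.50 to 4.77 (antisense minus empty). The score percentile difference passed the threshold, each time with an exact permutation p of 0.0312, with basic transcript starts (15.5), a 2 kb window (14.2) and peaks that touch the TSS (20.5). It was smaller than reported among the 1000 highest-scoring peaks (2.92, exact permutation p = 0.312). The same held above the median score (6.31) and with 500 bp (12.7), both with an exact permutation p of 0.0938.

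Counts of shared genes also depended on the settings, and the cause was not tested. Genes in both CRLM1-OE lists, 47 as reported, numbered 79 with a 2 kb window, 22 with 500 bp, 31 above the median score, 23 among the 1000 highest-scoring peaks and 27 with 50% reciprocal overlap. Genes in both antisense lists, 8 as reported, numbered 14 with basic transcript starts, 13 with 2 kb, 3 with 500 bp and 5 when the peak touched the TSS. Genes in both empty lists, 1 as reported, numbered 3, 6, 1 and 2 under the same settings and 0 with 50% reciprocal overlap. With the replicate number as a block the differences in promoter share stayed at 6.42, 2.78 and 3.63 points with an exact permutation p of 0.5. Deviations of same-numbered lists correlated at -0.0337, -0.0213 and -0.0275. With 2 lists per group, whose deviations mirror each other, these values cannot show whether same-numbered libraries were prepared together.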

Other observations

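Promoter peaks were spread unevenly over the chromosomes. Chromosome 19 held 133 of them, 13.1%, beside 7.37% of the protein-coding TSSs and 3.86% of the other peaks. It held between 11.7% and 16.1% of the promoter peaks of each list, so its share was above that of the TSSs in 6 of 6 lists. Chromosomes 17 (9.72% of promoter peaks, 5.92% of TSSs) and 16 (6.58%, 4.28%) were also above. Chromosomes 3 (2.65%, 5.40%) and 4 (2.06%, 3.78%) were below. Chromosome X held 1 promoter peak and 20 other peaks over all 6 lists, 0.0982% and 0.132%, beside 4.29% of the TSSs. The part of GC content in these values was not tested.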
